A study of Rattus norvegicus with 20 samples.

Results

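Matrix metalloproteinases and their tissue inhibitors were followed in the dorsal root ganglion (DRG) of rats on 2 diets after chronic constriction injury (CCI) of the sciatic nerve. The 9 genes were chosen by name among 39747 genes in the count table: the gelatinases Mmp2 and Mmp9, the collagenase Mmp13, the membrane-type enzymes Mmp14, Mmp16 and Mmp24, and the inhibitors Timp1, Timp2 and Timp3. All 9 had a row, and they were chosen with earlier results of these data known. Wild-type female Sprague-Dawley rats, 8 to 10 weeks old at the start, ate a soy oil diet (SOD, the AIN-93G-based control) or a fish oil diet (FOD) for 4 weeks before surgery. In CCI the left sciatic nerve was loosely tied with chromic gut, and in sham controls (CT) it was exposed without ligatures. Left DRG libraries numbered 4 in SOD-CT, 3 in SOD-CCI, 3 in FOD-CT and 4 in FOD-CCI. The right, uninjured DRG gave 3 contralateral libraries each from SOD-CCI and FOD-CCI rats, and 6 of 14 rats therefore had both sides sequenced. The series' design text and the study's methods both have the diets continue for 4 weeks after surgery, while the study's results place DRG collection for sequencing at 1 week, so the time on diet of these rats is not settled. Every group carried the same incision and a defined diet, and no group stands for rats without surgery or on ordinary chow.

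Matrix metalloproteinases are zinc-dependent enzymes that are made as inactive proenzymes and cut collagens, laminins and other proteins outside cells. The tissue inhibitors bind the active site, and Timp2 together with Mmp14 at the cell surface also takes part in activating pro-Mmp2. In nerve and DRG these enzymes are known for matrix turnover, for opening the blood-nerve barrier and for processing cytokines and myelin proteins after injury. Transcript levels, as measured here, say nothing of proenzyme activation or enzyme activity.

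Values are CPM, a gene's read count scaled to the total of its library. Totals ran from 22547190 to 54437581 counts. Neuronal markers (6 of 6 genes) were present in all libraries, with a summed level from 3540 to 19600 CPM. Other tissues were present in some libraries. Summed spinal cord glia genes were at 2800 CPM in FOD-CT replicate 1, 2090 in FOD-CCI replicate 1 and 3450 in FOD-CCI contralateral replicate 1, against at most 67.2 elsewhere. Skeletal muscle genes differed by group, with sums of 4.78 to 82100 CPM in SOD-CT, 437 to 16400 in FOD-CT, 6.4 to 1410 in SOD-CCI contralateral and 11 to 6530 in FOD-CCI contralateral libraries, but at most 52.1 in SOD-CCI and 144 in FOD-CCI. SOD-CT replicate 1 was the highest and FOD-CT replicate 2 the next. SOD-CT replicate 4 and FOD-CCI replicate 2 held 656 and 2390 CPM of neutrophil genes. Atf3, a transcription factor induced in injured sensory neurons, was at 263 to 333 CPM in SOD-CCI and at 202 to 501 CPM in FOD-CCI replicates 2 to 4. In FOD-CCI replicate 1 it was at 3.27 CPM, below every sham library (13.1 to 47.3 CPM), so this library did not show the high Atf3 of the other injured DRG. Fewer cells of a type and less RNA per cell cannot be told apart in these bulk libraries.

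Promoter sequence was matched by gene ID for 5 of the 9 genes in the RefSeq annotation of build GRCr8, and 4 are shown because they set the inhibitor with the injured-side difference beside those without one, and add the collagenase. The count table's own build is not given in the sources used here. Each run covers the 250 bases before an annotated start, 5′ to 3′ on the gene's strand: Timp1 at chrX:3771123-3771372 (minus strand), Timp2 at chr10:104089215-104089464 (minus), Timp3 at chr7:19459559-19459808 (minus) and Mmp13 at chr8:12782579-12782828 (plus). Capitals mark a match to TGANTCA, the motif of the AP-1 (Fos and Jun) factors, or to TGAGTAA, a close variant of it.
Timp1: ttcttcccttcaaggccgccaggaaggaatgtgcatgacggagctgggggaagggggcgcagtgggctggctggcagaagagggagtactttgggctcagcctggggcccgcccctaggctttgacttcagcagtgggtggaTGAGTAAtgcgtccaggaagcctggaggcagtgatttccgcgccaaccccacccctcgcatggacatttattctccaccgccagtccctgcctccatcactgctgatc
Timp2: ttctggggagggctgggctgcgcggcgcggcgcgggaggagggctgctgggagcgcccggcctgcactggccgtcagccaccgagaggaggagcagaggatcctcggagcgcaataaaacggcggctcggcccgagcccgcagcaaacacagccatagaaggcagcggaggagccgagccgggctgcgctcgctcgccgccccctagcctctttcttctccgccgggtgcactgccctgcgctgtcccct
Timp3: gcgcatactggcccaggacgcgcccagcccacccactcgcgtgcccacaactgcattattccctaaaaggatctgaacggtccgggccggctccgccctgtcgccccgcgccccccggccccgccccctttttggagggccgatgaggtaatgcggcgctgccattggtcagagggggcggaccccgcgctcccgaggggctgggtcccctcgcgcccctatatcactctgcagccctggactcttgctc
Mmp13: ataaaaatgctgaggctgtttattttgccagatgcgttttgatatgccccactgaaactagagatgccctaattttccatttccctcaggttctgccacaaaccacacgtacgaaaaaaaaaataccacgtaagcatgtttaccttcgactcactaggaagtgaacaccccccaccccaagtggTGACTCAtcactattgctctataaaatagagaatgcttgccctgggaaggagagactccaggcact
TGANTCA, searched on both strands, was found in Mmp13, beginning 66 bases before the start, and in 6.34% of 33469 promoters of the same length. TGAGTAA was found in Timp1, 108 bases before the start, and in 2.38% of all. No capitals appear in Timp2 and Timp3, which says only that neither motif is in these windows. TATAAA was found in Mmp13 alone of the matched genes (12.9% of all promoters), and GGGCGG in the other 4, among them Mmp24, which is not printed (30.5% of all). GC content ran from 44.4% in Mmp13 to 83.6% in Mmp24. The motifs were chosen after the sequences were seen, so these shares do not measure how unusual a match is. A motif match is a description of the letters and not a measured binding site.

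Per length, the inhibitors were the most abundant of the 9 transcripts. On the deposited FPKM scale (counts per length, scaled with DESeq2 size factors) the median level over 20 libraries was 324 for Timp2, 126 for Timp3 and 84.5 for Timp1. Mmp14 followed at 39.9, Mmp2 at 18.5 and Mmp24 at 14.7, and the range of each overlapped that of its neighbour in this order. Mmp16 had a median of 1.94 FPKM, with libraries from 0.474 to 12.8. Mmp13 (0.476) and Mmp9 (0.467) were the scarcest and did not differ beyond their spread. All libraries held at least 42 reads of each of the other 7 genes. Mmp9 had fewer than 10 reads in 5 libraries and Mmp13 in 3, each with 2 libraries at 0.

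**Figure D1:**
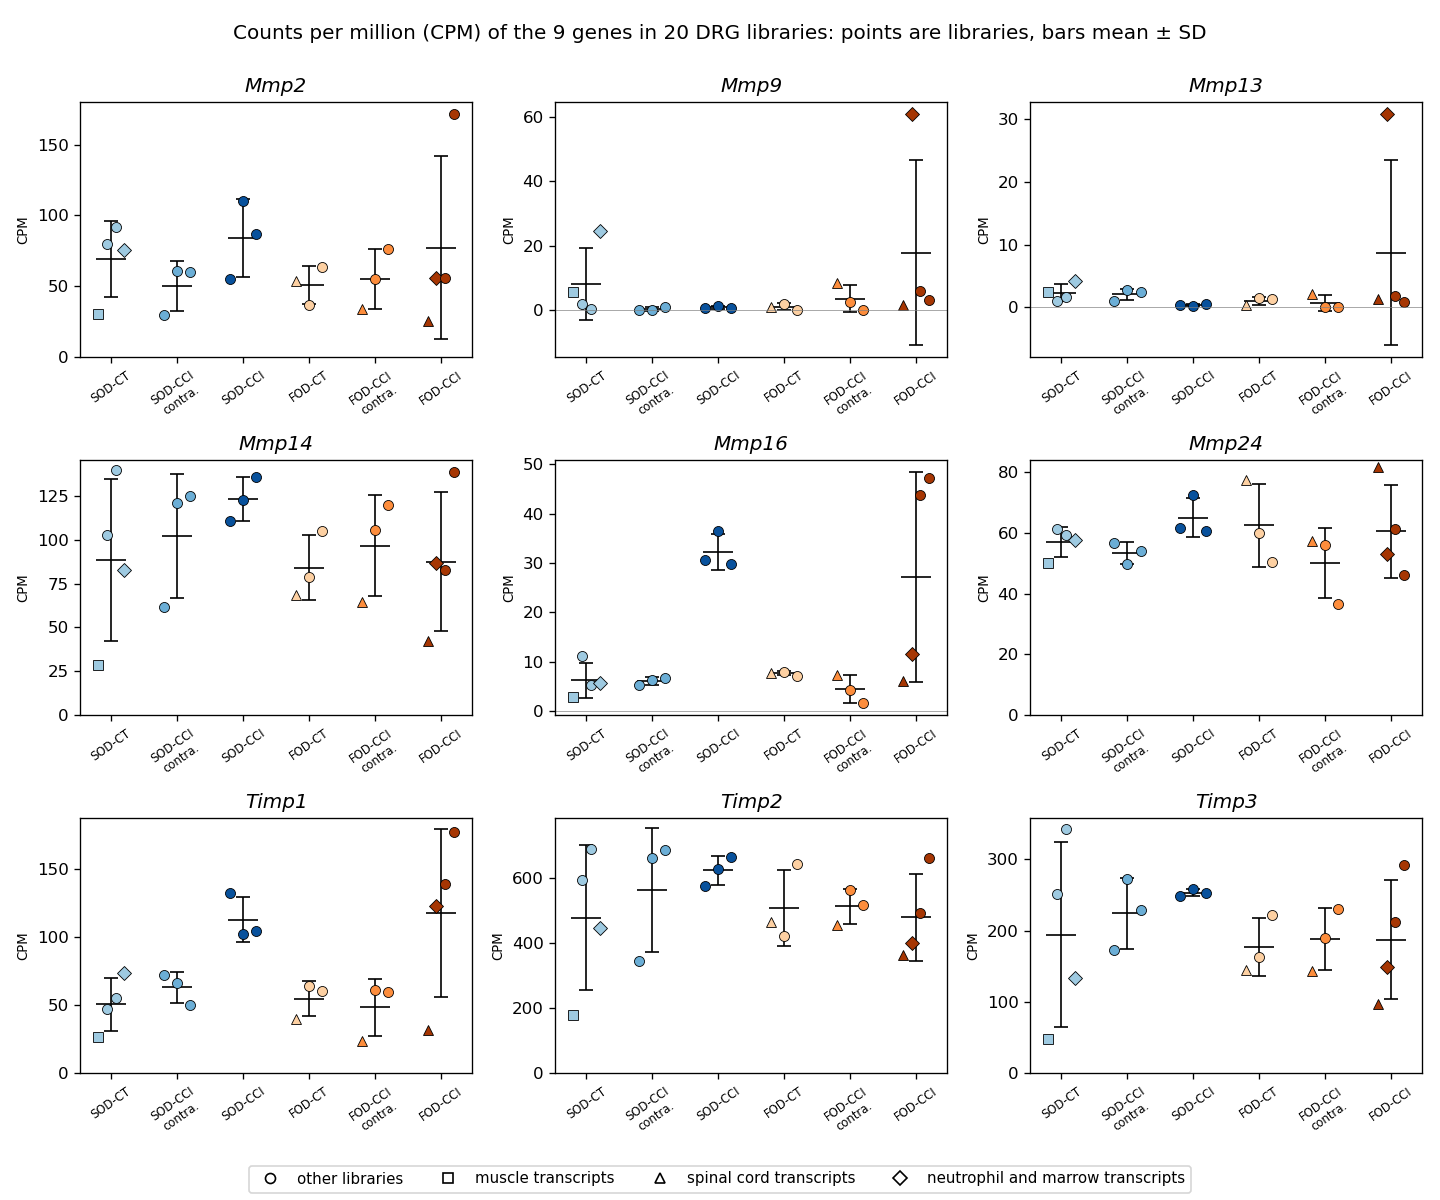
CPM (vertical axis, linear) of the 9 genes in each library, by group, with group mean ± SD as black bars and marker shapes for libraries with transcripts of other tissues. Mmp16 and Timp1 are higher in the 3 SOD-CCI libraries than in every SOD-CT library, and Mmp9 and Mmp13 peak in 1 FOD-CCI library at 60.8 and 30.8 CPM.

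The main test was edgeR's quasi-likelihood test. Genes entered it with 10 or more reads in 90% of a model's libraries, and a call needed a fold of 1.2 or more together with a p of 0.1 or less after Benjamini-Hochberg adjustment. Of the 9 genes, 8 passed the filter among the left libraries and 7 in the left-right comparison, since Mmp9 failed in both and Mmp13 in the second. No member was called in any of the 9 comparisons. The background was as low, with 0% of 14484 genes called in SOD-CCI vs SOD-CT, FOD-CCI vs FOD-CT, FOD-CCI vs SOD-CCI and FOD-CT vs SOD-CT, while 2006, 654, 782 and 491 genes had an unadjusted p under 0.05. DESeq2, the tool named in the study's methods, called 594, 21, 2 and 0 genes in the same order. The differences below are therefore given with their size, error and unadjusted rank, and are not calls unless a tool is named.

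Timp1, a secreted inhibitor that also acts as a growth factor-like signal, stood higher on the injured side on both diets. Its level was 26.7, 46.7, 54.8 and 73.3 CPM in SOD-CT and 132, 102 and 104 CPM in SOD-CCI. The SOD groups did not overlap. FOD-CT libraries had 39.8, 64 and 60.1 CPM and FOD-CCI libraries 31.2, 123, 139 and 177 CPM. The 31.2 CPM was FOD-CCI replicate 1, the library with Atf3 below every sham library, and the other 3 were above all FOD-CT libraries. The log2 difference was 1.03 ± 0.43 (SE) in SOD-CCI vs SOD-CT (n = 3 and 4, edgeR adjusted p = 0.329) and 1.13 ± 0.44 in FOD-CCI vs FOD-CT (n = 4 and 3, edgeR adjusted p = 1).

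Within a rat, Timp1 was higher in the left than in the right DRG in 6 of 6 rats. Left over right was 1.83, 1.54 and 2.09 in the SOD-CCI rats and 1.32, 2.03 and 2.33 in the FOD-CCI rats, the lowest being the rat with spinal cord transcripts in both libraries. With the rat as a block, the log2 difference was 0.80 ± 0.20 on the soy oil diet (edgeR adjusted p = 0.27) and 0.90 ± 0.21 on the fish oil diet (edgeR adjusted p = 0.522). The background of calls was 0.131% (19 of 14549 genes) and 0.0137% (2 genes). The DESeq2 Wald test called Timp1 in both (adjusted p = 0.052 and 0.025), where it called 3.24% and 1.81% of genes. The side by diet difference of Timp1 was 0.10 ± 0.29 on the log2 scale (edgeR adjusted p = 0.997). In SOD-CCI rats macrophage genes moved with the side as well, at 86.2, 152 and 113 CPM summed in the left and 9.94, 28.3 and 41.5 CPM in the right DRG, and 5 of 5 tested fibroblast genes had a higher level on the left (median log2 difference 0.90). In FOD-CCI rats these markers were mixed. The macrophage sum there was 75.9, 186 and 123 CPM in the left and 142, 69.2 and 88.6 CPM in the right DRG, and 4 of 5 fibroblast genes had the lower level on the left (median -1.01). Their part in the left-right differences of Timp1, Mmp16 and Mmp2 was not tested.

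Mmp16, a membrane-type enzyme that cuts collagen III and activates pro-Mmp2, had the largest fold between SOD-CCI and SOD-CT of the 7 members with over 10 reads in all libraries. It was at 2.76, 11.1, 5.18 and 5.67 CPM in SOD-CT and at 30.5, 36.5 and 29.7 CPM in SOD-CCI, with no overlap. FOD-CT libraries lay close together at 7.77, 7.9 and 7.16 CPM. FOD-CCI libraries were spread over 6.14, 11.5, 43.7 and 47.2 CPM, with the lowest again replicate 1 and the next the library with neutrophil transcripts. The log2 difference was 2.27 ± 0.56 in SOD-CCI vs SOD-CT (edgeR adjusted p = 0.266) and 1.86 ± 0.59 in FOD-CCI vs FOD-CT (edgeR adjusted p = 1).

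The left-right comparison of Mmp16 split by rat. In the SOD-CCI rats the left DRG held 5.78, 5.82 and 4.39 times the level of the right. In the FOD-CCI rats the ratio was 0.834, 2.7 and 26.4, so the 3 rats did not move alike. The fit gave a log2 difference of 2.35 ± 0.70 on the soy oil diet (edgeR adjusted p = 0.355) and 1.85 ± 0.80 on the fish oil diet (edgeR adjusted p = 0.707). The latter was 3.02 without FOD-CCI replicate 1 and 0.63 without replicate 3. DESeq2 called Mmp16 in both left-right comparisons (adjusted p = 0.00779 and 0.0999) and in SOD-CCI vs SOD-CT (adjusted p = 0.0174), where it called 4.1% of genes.

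Leaving out 4 libraries, the 3 with spinal cord transcripts and SOD-CT replicate 1 with the most muscle, changed which members passed. FOD-CT replicate 2 (16400 CPM of muscle genes), FOD-CT replicate 3 (437) and SOD-CT replicate 4 (4360) stayed in. In edgeR fits on the remaining libraries, Mmp16 was called in SOD-CCI vs SOD-CT (2.11 ± 0.45, adjusted p = 0.0662) against 1.32% of genes. In FOD-CCI vs FOD-CT, Mmp16 (2.14 ± 0.52, adjusted p = 0.0656) and Timp1 (1.21 ± 0.25, adjusted p = 0.043) were called against 3.47% of genes. Timp1 missed the threshold in SOD-CCI vs SOD-CT (0.91 ± 0.22, adjusted p = 0.101). In the left-right fit without the affected rat, Timp1, Mmp16 and Mmp2 were called in SOD-CCI against 3.14% of genes (edgeR adjusted p = 0.0488, 0.0426 and 0.0848), and Timp1 in FOD-CCI against 0.914% (adjusted p = 0.078). When every left library over 1000 CPM of muscle or spinal cord genes was left out, 9 libraries remained (2 in SOD-CT, 1 in FOD-CT and 3 in each CCI group), and the lone FOD-CT library was taken to vary like the other groups. Timp1 was then called by edgeR in SOD-CCI vs SOD-CT (1.17 ± 0.20, adjusted p = 0.0619, against 0.741% of genes) and in FOD-CCI vs FOD-CT (1.32 ± 0.27, adjusted p = 0.0559, against 1.85%). Mmp16 was not called there, at 1.99 ± 0.53 and 2.28 ± 0.71 (edgeR adjusted p = 0.18 and 0.191). Without FOD-CCI replicate 1 alone, edgeR called Mmp16 in SOD-CCI vs SOD-CT (adjusted p = 0.0807, against 0.321% of genes) and Timp1 in FOD-CCI vs FOD-CT (1.44, adjusted p = 0.0908, against 0.294%). Over all alternatives run, the adjusted p in SOD-CCI vs SOD-CT ranged from 0.0174 to 0.647 for Mmp16 and from 0.0619 to 0.66 for Timp1. In FOD-CCI vs FOD-CT the ranges were 0.0656 to 1 and 0.043 to 1. Between the sides they ran from 0.00779 (Mmp16), 0.0488 (Timp1) and 0.0848 (Mmp2) to 1 in SOD-CCI, and from 0.025 (Timp1) and 0.0999 (Mmp16) to 1 in FOD-CCI. The part that spinal cord and muscle transcripts have in the fits on all libraries was not tested.

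**Figure D2:**
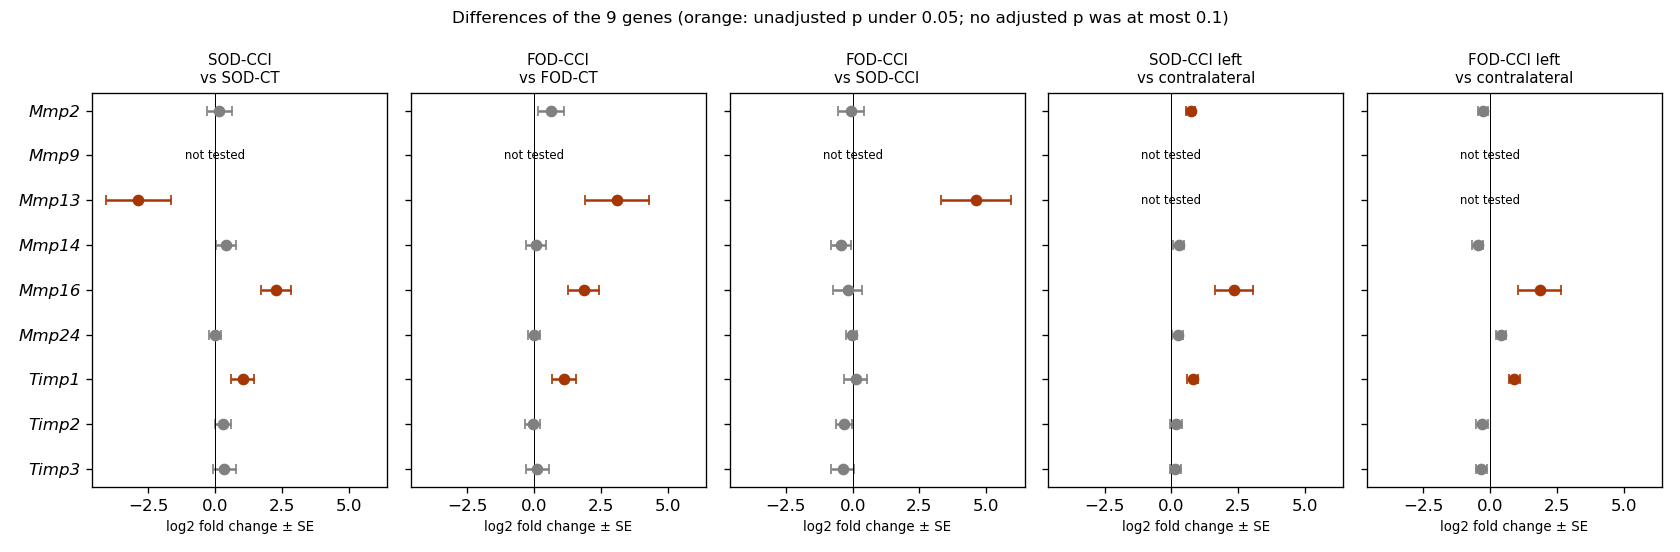
Log2 fold change (horizontal axis) ± SE of each gene in 5 comparisons from edgeR, with genes at an unadjusted p under 0.05 in orange and genes that failed the filter marked as not tested. Timp1 and Mmp16 lie above 0 in the 4 comparisons of the injured side and near 0 in FOD-CCI vs SOD-CCI.

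Mmp14, the enzyme that activates pro-Mmp2 with Timp2, showed no difference between injured and sham DRG beyond its spread. It was at 28.7, 103, 140 and 83 CPM in SOD-CT and 111, 123 and 136 in SOD-CCI. FOD-CT had 68.8, 78.6 and 105 CPM and FOD-CCI 42.3, 86.7, 82.8 and 139 CPM, so both pairs of groups overlapped. Between the sides of a rat, Mmp14 was higher on the left in 3 of 3 SOD-CCI rats (1.8, 1.02 and 1.08 times) and lower on the left in 3 of 3 FOD-CCI rats (0.658, 0.817 and 0.688 times). That side by diet difference was -0.74 ± 0.30 on the log2 scale (edgeR adjusted p = 0.997), and 2 of the SOD-CCI ratios were close to 1. The share of all genes with such a split was not counted.

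Mmp24, a membrane-type enzyme expressed in neurons, was the steadiest of the 9. All 20 libraries fell between 36.6 and 81.7 CPM. Its left DRG libraries in SOD-CCI (61.8, 72.5 and 60.8 CPM) did not overlap those of the right (56.7, 49.7 and 53.9 CPM), but the difference did not reach an unadjusted p under 0.05 in edgeR. Counted with Mmp16 and Timp1, 3 of the 7 tested members were free of overlap on the higher side in that comparison, against 12.6% of all genes. In SOD-CCI vs SOD-CT 2 of 8 were (Mmp16 and Timp1), against 11.8% of genes.

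Mmp2, the gelatinase that resting tissue also makes, differed between the sides on the soy oil diet. Its level was 54.9, 110 and 87 CPM in the left and 29.3, 61 and 59.7 CPM in the right DRG of the 3 SOD-CCI rats, 1.87, 1.81 and 1.46 times as high. In the FOD-CCI rats the left had 25.4, 55.4 and 56 CPM and the right 34, 55 and 76.2 CPM, a ratio of 0.746, 1.01 and 0.735. The log2 difference between the sides was 0.72 ± 0.18 in SOD-CCI (edgeR adjusted p = 0.271) and the side by diet difference was -0.99 ± 0.26 (unadjusted p = 0.00425, edgeR adjusted p = 0.997). The DESeq2 Wald test called Mmp2 between the sides of SOD-CCI rats, where it called 3.24% of genes. Of the 7 tested members, 2 (Mmp2 and Mmp14) had an unadjusted p under 0.05 for the side by diet difference, against 2.91% of genes, and 0% of genes were called. Marker genes of other cell types moved in the same direction for side by diet. All 5 tested fibroblast genes were negative (median -1.78), 3 of them at an unadjusted p under 0.05, and 4 of 5 macrophage genes were negative (median -1.45). Their part in the Mmp2 and Mmp14 differences was not tested.

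Against sham libraries Mmp2 overlapped on both diets, with 30.2, 79.9, 91.9 and 75.5 CPM in SOD-CT and 53.5, 36.5 and 63.2 CPM in FOD-CT. The fourth FOD-CCI library reached 172 CPM, the highest Mmp2 level of the series. The same library had the highest summed fibroblast genes (3020 CPM over 5 genes found of 6, other libraries 301 to 2600) and macrophage genes (274 CPM over 6 genes, others 9.94 to 186), and their part in that level was not tested.

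**Figure D3:**
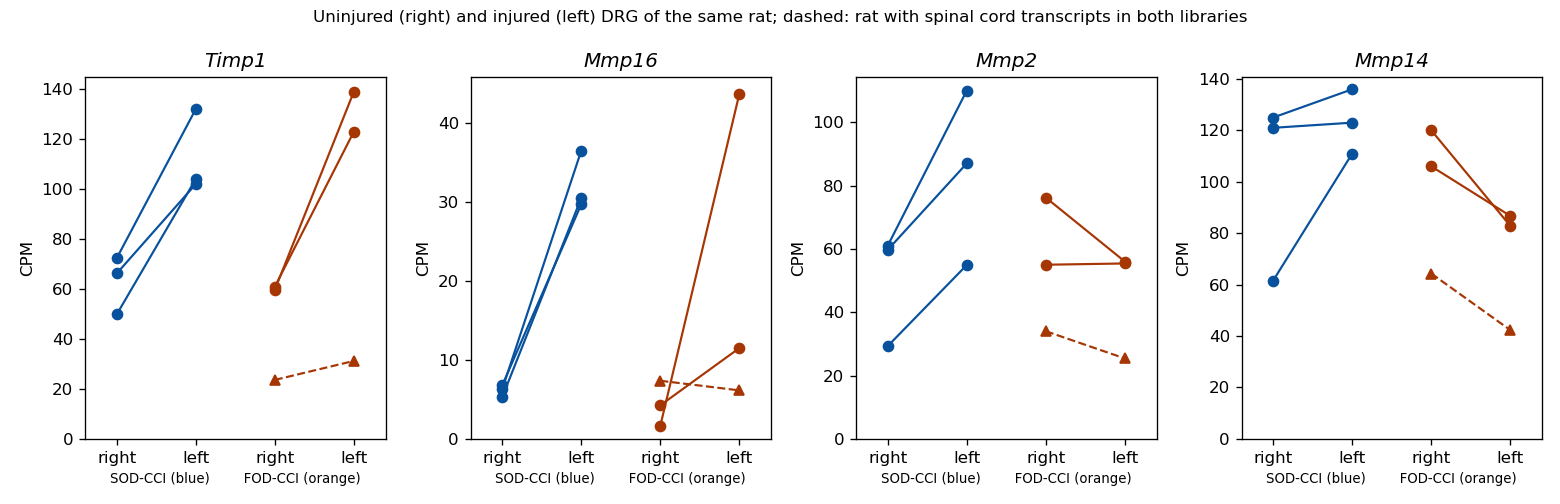
CPM (vertical axis from 0) of 4 genes in the right (uninjured) and left (injured) DRG, with a line for each of 6 rats, SOD-CCI in blue and FOD-CCI in orange. Timp1 is higher on the left in all 6 lines, while the Mmp2 and Mmp14 lines slope up in the SOD-CCI rats and are flat or slope down in the FOD-CCI rats.

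Mmp9, the gelatinase stored in neutrophil granules, was scarce, with a median of 1.48 CPM and fewer than 10 reads in 5 libraries. It failed the filter and was not tested. SOD-CT libraries had 5.66, 2.08, 0.271 and 24.6 CPM and SOD-CCI libraries 0.759, 1.31 and 0.552 CPM. FOD-CT had 1.15, 2.07 and 0.106 CPM and FOD-CCI 1.64, 60.8, 5.84 and 3.12 CPM. All 4 FOD-CCI libraries were above all 3 SOD-CCI libraries, as was the case for 5.92% of the genes tested there. The means were 17.9 ± 28.7 (SD) and 0.876 ± 0.394 CPM, and the FOD-CCI mean was 3.53 ± 2.13 CPM (n = 3) without replicate 2. The right DRG had 0.108, 0 and 1.16 CPM in SOD-CCI and 8.34, 2.5 and 0 CPM in FOD-CCI. A count of 0 allowed up to 0.101 CPM in the SOD-CCI library and 0.118 CPM in the FOD-CCI library, from 3 counts of the library total, which covers counting error only.

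Mmp13, a collagenase with collagen II among its substrates, was scarce in the same way. It was at 2.41, 1.02, 1.69 and 4.18 CPM in SOD-CT and lower in SOD-CCI at 0.398, 0.236 and 0.483 CPM (11, 7 and 14 reads), with no overlap. Among tested genes 5.66% were lower without overlap in that comparison. FOD-CT had 0.318, 1.49 and 1.25 CPM and FOD-CCI 1.34, 30.8, 1.8 and 0.858 CPM. The right DRG of SOD-CCI had 1.04, 2.75 and 2.39 CPM, above the left of each rat. The right DRG of FOD-CCI had 2.08, 0 and 0 CPM, and each 0 allowed at most 0.114 or 0.118 CPM.

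The fitted log2 differences of Mmp13 were large with large errors: -2.87 ± 1.23 in SOD-CCI vs SOD-CT (edgeR adjusted p = 0.337) and 3.11 ± 1.21 in FOD-CCI vs FOD-CT (edgeR adjusted p = 1). Without FOD-CCI replicate 2 the second was 0.38 ± 0.74. The diet by injury difference was 5.97 ± 1.72 (unadjusted p = 0.00381, edgeR adjusted p = 0.894) and 3.25 ± 1.05 without that library. It was the only one of 8 members with an unadjusted p under 0.05 there, against 5.01% of genes, and 0% of genes were called.

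Neutrophil transcripts were highest where both enzymes were highest, but elsewhere Mmp13 was not in step with them. FOD-CCI replicate 2 and SOD-CT replicate 4, the highest libraries for Mmp9 and for Mmp13, were also the highest for the 5 neutrophil genes summed (2390 and 656 CPM, other libraries 5.42 to 380). The defining genes S100a8 and Mpo were at 895 and 146 CPM in the first and 225 and 26.1 CPM in the second. In SOD-CCI the neutrophil sum was 5.42 to 46.4 CPM, with 1 or 2 of the 5 genes at 0, and in the other FOD-CCI libraries it was 49.8 to 113 CPM. Among the right DRG libraries, FOD-CCI replicates 2 and 3 had neutrophil sums of 103 and 115 CPM with Mmp13 at 0, and SOD-CCI replicates 2 and 3 had 22.6 and 12.5 CPM with Mmp13 at 2.75 and 2.39 CPM. Mmp9 was mixed there. The right DRG of FOD-CCI replicate 1 had the third-highest neutrophil sum, 380 CPM, and 8.34 CPM of Mmp9, while that of replicate 3 had 115 CPM with Mmp9 at 0. Red cell genes were likewise highest in FOD-CCI replicate 2 and SOD-CT replicate 4 (21700 and 9000 CPM, others 97.3 to 4940). The part of neutrophil or blood transcripts in the Mmp9 and Mmp13 levels was not tested.

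**Figure D4:**
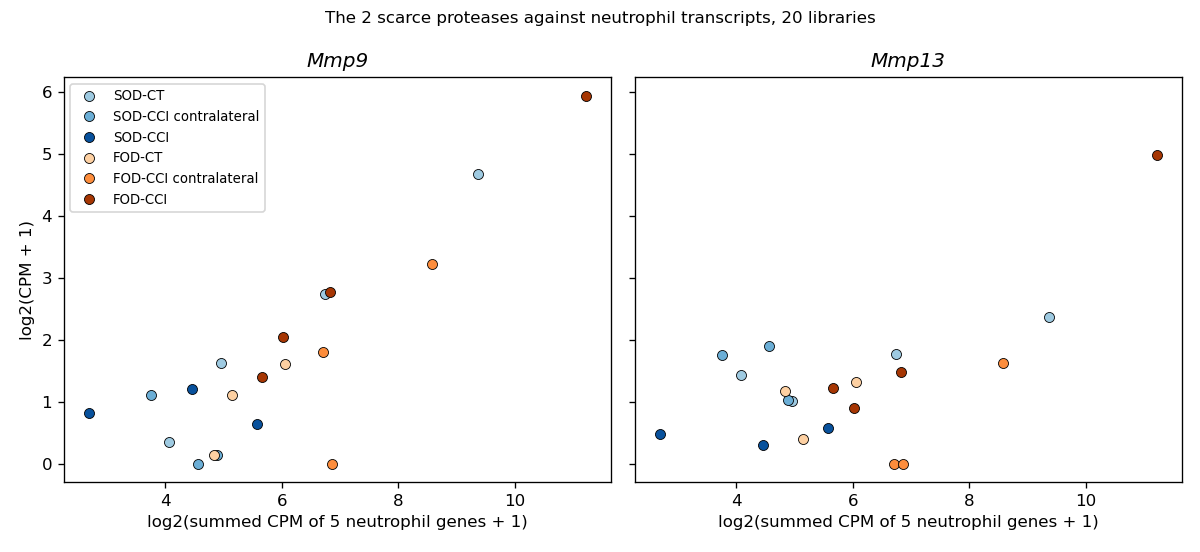
Log2(CPM + 1) of Mmp9 (left) and Mmp13 (right) against log2 of the summed CPM + 1 of 5 neutrophil genes, 1 point per library, coloured by group. The FOD-CCI library at 60.8 CPM of Mmp9 and 30.8 CPM of Mmp13 has the highest neutrophil sum, 2390 CPM.

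Timp2 and Timp3, the abundant inhibitors made constitutively in many tissues, overlapped between all groups compared. Timp2 was at 177, 594, 689 and 447 CPM in SOD-CT, 576, 628 and 665 CPM in SOD-CCI, 463, 422 and 642 CPM in FOD-CT and 362, 399, 492 and 662 CPM in FOD-CCI. Timp3, which is held in the matrix, was at 48, 252, 343 and 133 CPM in SOD-CT, 248, 258 and 253 CPM in SOD-CCI, 144, 163 and 222 CPM in FOD-CT and 96.5, 149, 212 and 292 CPM in FOD-CCI. The SOD-CT minimum of both was replicate 1, the library with muscle transcripts. In the right DRG Timp2 ran from 343 to 686 CPM and Timp3 from 143 to 272 CPM. Unlike Timp1, both had the left below the right in 3 of 3 FOD-CCI rats, at 0.707 to 0.95 times for Timp2 and 0.674 to 0.92 times for Timp3.

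Fish oil against soy oil after injury separated no member by the main test. The log2 difference in FOD-CCI vs SOD-CCI was 0.12 ± 0.43 for Timp1, -0.32 ± 0.29 for Timp2 and -0.37 ± 0.43 for Timp3. For the enzymes it was -0.05 ± 0.48 for Mmp2, -0.43 ± 0.37 for Mmp14, -0.19 ± 0.55 for Mmp16 and -0.04 ± 0.22 for Mmp24. These 7 had edgeR adjusted p-values from 0.879 to 0.991. A p of this size does not show that the diets gave the same level. Mmp13 was higher in FOD-CCI by 4.61 ± 1.32 (unadjusted p = 0.0037, edgeR adjusted p = 0.859) and without overlap, as 5.92% of tested genes were. Without FOD-CCI replicate 2 it was 1.89 ± 0.78 (edgeR adjusted p = 0.999). DESeq2 called Mmp13 with all libraries (adjusted p = 0.0771, range over alternatives 0.0771 to 0.999), 1 of 2 genes it called (0.0138%). Thus 1 of 8 members had an unadjusted p under 0.05, against 5.4% of genes.

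Diet also gave no called difference where the nerve was not injured. In FOD-CT vs SOD-CT 0 of 8 members had an unadjusted p under 0.05, against 3.39% of genes, and the log2 differences of the 8 ran from -1.36 to 0.22. In the contralateral DRG 0 of 7 did, against 7.1% of 14007 genes, with differences from -0.46 to 0.18. The diet by injury differences of Mmp16 and Timp1 were -0.41 ± 0.79 and 0.10 ± 0.61, and the side by diet difference of Mmp16 was -0.50 ± 1.05. The injury comparisons held more members at that level, 3 of 8 in SOD-CCI vs SOD-CT (Timp1, Mmp16 and Mmp13) against 13.8% of genes and the same 3 in FOD-CCI vs FOD-CT against 4.52%. Mmp13 did not move alike on the diets, at -2.87 in the first and 3.11 in the second. The latter was 0.38 without FOD-CCI replicate 2. Between the sides there were 3 of 7 in SOD-CCI (Timp1, Mmp16 and Mmp2) against 8.48% of genes and 2 of 7 in FOD-CCI (Timp1 and Mmp16) against 6.96%. The members were chosen with earlier results of these data known, so these shares cannot show an excess of the family over the background.

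The other genes of the pathway were read in the same fits. Of 16 further matrix metalloproteinases 7 could be tested, and none was called in SOD-CCI vs SOD-CT, where the median log2 difference was 0.34 beside -0.01 over all genes. Mmp19 had the lowest p of them at 2.44 ± 0.88 (edgeR adjusted p = 0.296), and between the sides of SOD-CCI rats it differed by 1.77 ± 0.40 (edgeR adjusted p = 0.22). Among 4 further inhibitors 3 were tested. A2m, a broad protease trap, differed between the sides by 1.44 ± 0.40 in SOD-CCI rats (edgeR adjusted p = 0.318). In FOD-CCI rats it had the lower level on the left, at -0.88 ± 0.41 (edgeR adjusted p = 0.717). Its side by diet difference was -2.32 ± 0.57 (edgeR adjusted p = 0.997). None of the 7 tested genes of the plasminogen system and the proprotein convertases, which activate proenzymes, was called in SOD-CCI vs SOD-CT, and Plau (urokinase) had 1.22 ± 0.47 there (edgeR adjusted p = 0.306).

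Among 6 surface partners and uptake receptors, Sdc1 (1.86 ± 0.69) and Cd44 (1.38 ± 0.50) had the lowest p in SOD-CCI vs SOD-CT (edgeR adjusted p = 0.302 and 0.295). Cd44 is a docking protein for Mmp9 and Mmp14. Of 15 ADAM and ADAMTS family genes 14 had a higher level in SOD-CCI than in SOD-CT and 0 were called, with a median log2 difference of 0.46. The lowest p was that of the aggrecanase Adamts4 at 1.83 ± 0.46 (edgeR adjusted p = 0.266). In FOD-CCI vs SOD-CCI 14 of these 15 had the lower level, with a median of -0.51 beside 0.04 over all genes and 0 called, and Adam22 had the lowest p (-0.62 ± 0.23, edgeR adjusted p = 0.859). These comparisons share the SOD-CCI libraries.

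The 13 tested matrix substrates, which are collagens, laminins, proteoglycans, fibronectin, tenascin C and nidogen, were divided in SOD-CCI vs SOD-CT, with 6 higher, 7 lower and a median of -0.06. Of 13 genes for AP-1 factors and inducing cytokines 8 were tested and all 8 had a higher level in SOD-CCI, with a median of 0.79. Jun, a subunit of AP-1, was the single called gene of these 7 lists: between the sides of SOD-CCI rats it rose by 1.88 ± 0.25 (edgeR adjusted p = 0.0538). Socs3, a feedback inhibitor of cytokine signaling, differed by 2.63 ± 0.47 there (edgeR adjusted p = 0.134). Of 9 tested nerve injury genes all 9 were higher in both SOD-CCI comparisons. The 4 called between the sides were Gal, Ecel1, Csf1 and again Jun, against 0.131% of all genes. In FOD-CCI rats these 4 differed between the sides by 1.31 (Csf1) to 3.38 (Gal) on the log2 scale and were not called.

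The transcripts most like each member were found by Pearson correlation of log2 CPM across the 20 libraries, among 12474 genes, given as a description, since libraries share depth, rats and other tissues. For Timp1 these were Il13ra1 (r = 0.951) and S100a11 (0.948), and for Mmp16 Sema6a (0.957) and Il4r (0.95). For Mmp14 they were Parva (0.954) and Lama4 (0.947), for Mmp2 Serping1 (0.923) and Col6a1 (0.923), and for Mmp24 Nemf (0.839) and Ube2k (0.832). For Timp2 they were Utrn (0.976) and Atf6 (0.962), and for Timp3 Mfhas1 (0.962) and Cald1 (0.952). Mmp9 and Mmp13 had weaker best matches, LOC102551164 (0.837) and Smc2 (0.768). Without the 4 libraries with spinal cord or muscle transcripts, Mmp16 kept the same 2 genes (Il4r 0.974, Sema6a 0.968), while Timp1 was closest to Pdcl3 (0.963) and Klf6 (0.954). Among the members themselves, Mmp14 correlated with Timp3 (r = 0.944) and Timp2 (0.935) across the 20 libraries, and at 0.807 and 0.918 over the 16 of the smaller set.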

How the data were processed

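RNA from left and right DRG was sequenced as poly-A libraries, and all 20 libraries were used. Counts per gene were deposited by the authors, whose processing notes name fastp for trimming, HISAT2 for alignment and featureCounts (1.5.0-p3) for counting. Libraries were not pooled. The authors also deposited FPKM, found here to equal counts per length on DESeq2 size factors. The sources used here give neither the genome build nor how multiply aligned reads were counted, and the labels describe both stranded and unstranded kits. Timp1, Timp2, Timp3 and Mmp24 overlap other annotated genes (Syn1, Cep295nl, Syn3 and Mmp24os), whose reads could be mixed with theirs if strand was not used.

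The study left out a SOD-CCI and a FOD-CT sample before library preparation. Samples were grouped by their titles. The edgeR (4.0.16) quasi-likelihood test used TMM scaling in 3 models: 14 left libraries by group, 12 libraries of 6 rats with the rat as a block, and 13 libraries for the contralateral comparison. DESeq2 (1.42.0) was an alternative, with R 4.3.3. The test was checked on simulated data with less spread between libraries than in these data. The common dispersion estimated here was 0.206 in the left model and 0.14 in the left-right model. That check therefore gives no power or error rate for these fits. Of 153 list genes 152 were found by symbol. Left and right deviations of a rat correlated at 0.133 to 0.416 in 6 of 6 rats. Same-numbered left libraries come from different rats. No label pairs these rats, so the number was read as a name only and a replicate block was run as an alternative. Such pairs of FOD-CT and FOD-CCI correlated at 0.419, 0.233 and 0.184, and both libraries of the first pair held spinal cord transcripts. In the other left comparisons at least 1 pair was under 0.1 (down to -0.254). P-values measure the spread between rats, except in the model with the rat as a block. There they measure how the left-right difference varies from rat to rat. Depth is given as library totals, and intervals for 0 counts cover counting error only.

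The named genes are the 9 members, every called gene of each list and otherwise up to 3 with the lowest unadjusted p, and the 2 most correlated transcripts. Only some of these are printed. The members and lists were chosen with earlier results of these data known, the promoter motifs after the sequences were seen, and leaving out the 2 libraries with neutrophil transcripts, or every left library over 1000 CPM of muscle or spinal cord genes, was added after seeing the data.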

Additional observations from a re-analysis of the deposited data

Results flagged for a closer look

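Of 18 sets of 4 libraries tested for a library far from the rest (9 genes in SOD-CT and FOD-CCI), 2 stood out. Chance flags about 1 in 20 sets if values are normally distributed, which was not checked for these CPM. Both flags were FOD-CCI replicate 2, with Mmp9 at 60.8 CPM and Mmp13 at 30.8 CPM, so they are not independent. Its gap to the next library took up 0.929 and 0.969 of the group's range. This library also had the highest neutrophil and red cell transcripts, whose part in these levels was not tested. All 9 genes were also searched for a side difference of opposite direction on the 2 diets. Mmp14 was higher on the left than on the right in every SOD-CCI rat and lower in every FOD-CCI rat. In 2 of the SOD-CCI rats the ratio was only 1.02 and 1.08, and the share of all genes with such a split was not counted. The difference between the diets was -0.74 on the log2 scale (edgeR adjusted p = 0.997).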

How the results depend on the processing

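Alternatives were another scaling (DESeq2 size factors, library totals), no filter, a gene length offset, the 2 groups alone, the DESeq2 Wald test, a replicate block, and leaving out libraries. Of 1386 member results under alternatives, in all comparisons, 1261 kept direction and side of the threshold, 24 became calls, 0 lost one and 101 changed sign. In the left-right model, leaving out the spinal cord libraries and leaving out FOD-CCI replicate 1 drop the same rat, so those results enter under both names. Genes that the main fit did not test, such as Mmp9, are not counted. The signs of Timp1 and Mmp16 held under every alternative run in the 4 injury comparisons, and Mmp13 kept its sign in every left comparison that could test it.

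Counts of called genes moved most. DESeq2 called 594 genes in SOD-CCI vs SOD-CT, 21 in FOD-CCI vs FOD-CT, 2 in FOD-CCI vs SOD-CCI, 42 for diet by injury, 472 and 264 for left vs contralateral in SOD-CCI and FOD-CCI, 60 for side by diet and 58 for the contralateral diet comparison. Without the 4 libraries with spinal cord or most muscle transcripts, edgeR called 200, 526, 471 and 137 genes in the 4 injury comparisons. Without every left library over 1000 CPM of those genes it called 109 in SOD-CCI vs SOD-CT, 272 in FOD-CCI vs FOD-CT and 399 in FOD-CCI vs SOD-CCI, none of them a member in the last. Leaving out 1 library gave 0 to 47, 0 to 43, 0 to 471 and 0 to 137. The highest of each was without FOD-CCI replicate 1. With no filter the left-right counts were 220, 61 and 3 (side by diet). With no replicate block for the rat they were 0 and 0. The replicate block on title numbers gave 1 call in SOD-CCI vs SOD-CT and otherwise changed no count of left comparisons. In FOD-CCI vs FOD-CT it gave 0.83 ± 0.40 for Timp1, 1.47 ± 0.63 for Mmp16 and 2.45 ± 1.29 for Mmp13, and changed no call.

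Changed signs are listed for the differences printed singly above, a choice made after the fits were seen. For FOD-CCI vs SOD-CCI, Mmp2 was 0.04 with the length offset, 0.07 without the neutrophil libraries, 0.23 without the 4 spinal cord or muscle libraries, 0.22 without all over 1000 CPM, and -0.80 to 0.24 leaving out 1 library. Mmp16 was 0.06, 0.14 and 0.13 without those 3 sets of libraries and -0.59 to 0.14 leaving out 1. Mmp24 was 0.10 with the length offset, 0.01 without the neutrophil libraries, 0.01 with the replicate block and -0.21 to 0.08 leaving out 1. Timp1 was -0.23 with the length offset, -0.28 with the replicate block and -0.13 to 0.44 leaving out 1. The diet by injury difference of Mmp16 was 0.03 without the 4 spinal cord or muscle libraries and 0.29 without all over 1000 CPM. That of Timp1 was -0.04 with library totals, -0.40 with the length offset, -0.15 without the neutrophil libraries, -0.51 with the replicate block and -0.16 to 0.41 leaving out 1. The side by diet difference was -1.72 to 0.67 for Mmp16 and -0.04 to 0.32 for Timp1 leaving out 1 rat, and 0.67 for Mmp16 without the rat with spinal cord transcripts. The cause was not tested. Groups of 3 or 4 rats limit the precision of all differences.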
